A study of Mus musculus with 6 samples.

Results

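The genes described here are 10 imprinted growth regulators, chosen by name from a table of 47205 genes measured by RNA sequencing in ovaries of 9 dpp mice (days post partum). They are Igf2, Dlk1, Peg3, Plagl1 and Mest, which are expressed from the paternal copy in most tissues, and H19, Cdkn1c, Grb10, Meg3 and Rian, which are expressed from the maternal copy in most tissues. Of the 6 libraries, 3 came from wild-type ovaries, labelled WT, and 3 from ovaries labelled SRSF1 cKO, in which the splicing factor SRSF1 was knocked out in granulosa cells. These somatic cells surround and nourish the oocyte. Neither the Cre driver nor the strain is named in the sources used here. Nor is it stated whether replicates were separate animals, and each p-value therefore reflects the spread between these libraries alone, which may be technical.

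An imprinted gene is read mainly from the copy inherited from a single parent, because DNA methylation laid down in the egg or the sperm marks the copies differently. Paternally expressed imprinted genes tend to promote fetal growth and maternally expressed ones tend to restrain it, and many of them are abundant in fetal tissue and decline after birth. In the ovary the subject has a second side, since the maternal methylation marks are laid down in growing oocytes. RNA sequencing per gene does not separate the parental copies, so the values below are sums over both. In whole ovaries, fewer cells of a type and less RNA per cell cannot be told apart.

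Values are FPKM, fragments per length of gene scaled per library by the authors, and a level set between genes depends on the gene lengths given in the table. Values after ± are SD over the 3 libraries of a group. The reads behind them ran from 16.8 to 18.7 M per library, and the 10 genes together took 0.155% to 0.208% of them, with no fewer than 822 reads for any member in any library. All 10 passed the filter of a mean of at least 1 FPKM, as did 14714 genes in all. Srsf1 itself measured 39.9, 49.6 and 46.3 FPKM in the WT libraries and 20.3, 26.9 and 21.4 FPKM in the cKO libraries, so that every cKO library lay below every WT library (log2 fold change -0.96, limma adjusted p = 0.32).

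None of the 10 genes differed between cKO and WT past the threshold of the study-wide test (limma on log2(FPKM + 1), adjusted p under 0.05 over all 14714 genes). That threshold was passed by 0.0204% of all genes tested, 0.0068% higher (1 gene) and 0.0136% lower (2 genes). With quantile normalization it was passed by 0 higher and 2 lower. At an unadjusted limma p under 0.05, 3 members were higher in cKO, namely Dlk1, H19 and Cdkn1c, and 0 were lower. Of all genes tested, 6.34% met that rule, 3.64% higher and 2.7% lower. In 4 members, Dlk1, H19, Igf2 and Rian, every cKO library lay above every WT library, and in 0 members below. Among all genes 12.3% had groups apart, 6.37% higher and 5.89% lower. The median log2 fold change was 0.22 over the 10 members and -0.00 over all genes tested. An exact permutation test over 3 against 3 libraries cannot give a p below 0.1, so it is given beside the limma values as a description of how far the groups lie apart.

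**Figure D1:**
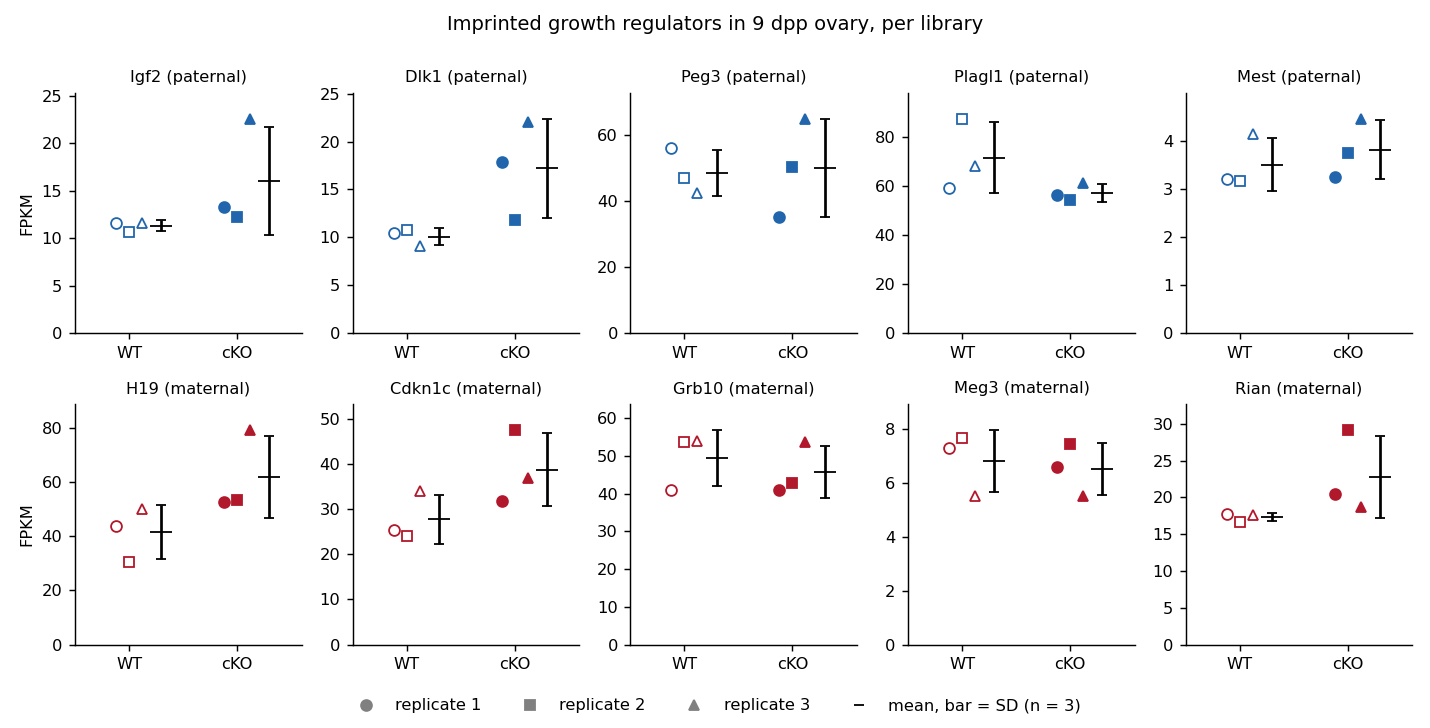
FPKM of each of the 10 genes in each library (open symbols WT, filled symbols cKO; blue paternally, red maternally expressed; the bar gives mean and SD, n = 3). Every cKO library lies above every WT library for Igf2, Dlk1, H19 and Rian, and the highest Igf2, Dlk1 and H19 values are those of cKO replicate 3.

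Igf2 and H19 lie next to each other on chromosome 7 and share enhancers, with Igf2 read from the paternal and H19 from the maternal copy. Igf2 (142204505 to 142220566, minus strand, in the GRCm39 coordinates of the table) encodes insulin-like growth factor 2, a fetal growth factor. It stood at 11.7, 10.6 and 11.6 FPKM in WT replicates 1, 2 and 3, and at 13.3, 12.2 and 22.6 FPKM in cKO replicates 1, 2 and 3. The WT libraries were close to each other, 2 of the cKO libraries lay just above them and cKO replicate 3 far above. The log2 fold change was 0.42 (SE 0.214, unadjusted limma p = 0.0913, adjusted p = 0.798, exact permutation p = 0.1), and without cKO replicate 3 it was 0.16.

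H19 (142129267 to 142131883, minus strand) gives a long noncoding RNA that restrains growth and is the precursor of the microRNAs miR-675-5p and miR-675-3p. It stood at 43.8, 30.6 and 50.1 FPKM in WT and at 52.7, 53.4 and 79.2 FPKM in cKO. The groups did not overlap, but WT replicate 3 lay close to the lower cKO libraries, and WT replicate 2 and cKO replicate 3 were the extremes. The log2 fold change was 0.57 (SE 0.225, unadjusted limma p = 0.0399, adjusted p = 0.773, exact permutation p = 0.1). It was 0.37 without WT replicate 2 and 0.38 without cKO replicate 3, and the unadjusted p was then 0.119 and 0.122. The microRNA row inside H19, Mir675, held 0 reads in all 6 libraries, so these libraries say nothing of the mature forms, which are printed here because they are the products of H19 that the gene's own FPKM does not count (RefSeq, GRCm38.p6, 5′ to 3′, with the seed, bases 2 to 8, in capitals).
mmu-miR-675-5p: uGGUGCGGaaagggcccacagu
mmu-miR-675-3p: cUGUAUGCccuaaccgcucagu
Both arms come from the minus strand of chromosome 7, and their seeds differ.

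H19 and Igf2 were high and low in the same libraries. Across the 6 libraries their log2(FPKM + 1) values had a Pearson r of 0.863 (exact permutation p = 0.0167, adjusted over 3 pairs of neighbours p = 0.05) and a Spearman rho of 0.886 (exact permutation p = 0.0333, adjusted p = 0.1). Without WT replicate 2 and cKO replicate 3, the libraries farthest from the median of H19, r was 0.611, so the relation rests largely on those libraries. The 6 libraries pool both genotypes, and both genes were higher in every cKO library than in every WT library. The correlation therefore includes that difference, and its permutation p does not allow for it. Within a genotype there are only 3 libraries, too few for a correlation. Per length, H19 was 3.64 ± 0.723 times as abundant as Igf2 in WT and 3.95 ± 0.436 times in cKO (SD, n = 3 each), and this ratio differed by less than its spread (exact two-sided permutation p = 0.6, where 3 against 3 libraries cannot go below 0.1).

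**Figure D2:**
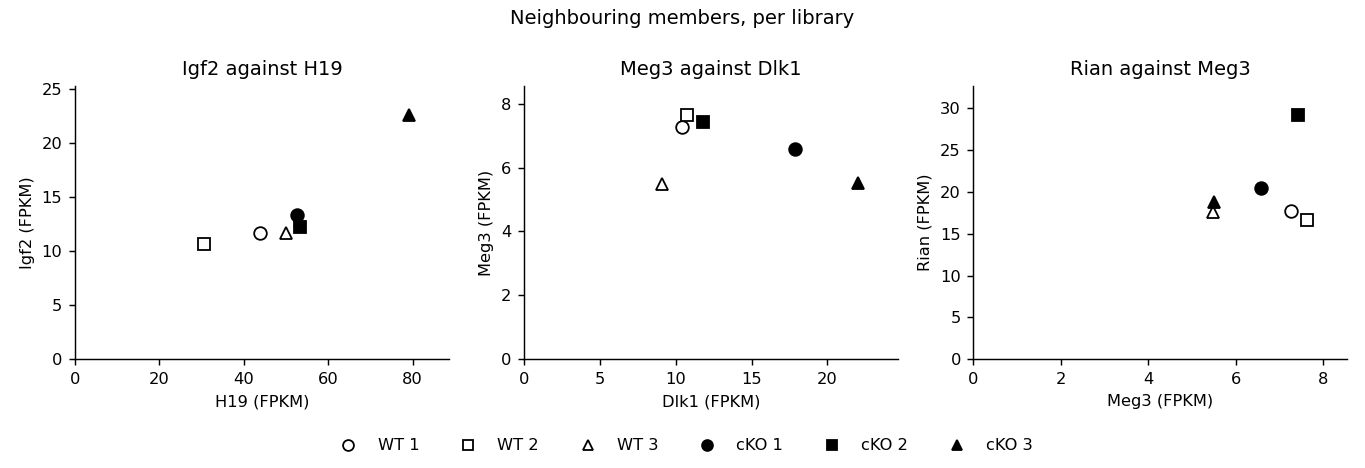
FPKM of neighbouring genes against each other, 1 point per library (open WT, filled cKO, symbol shape by replicate number). Igf2 and H19 were both highest in cKO replicate 3, whereas Meg3 stayed between 5.49 and 7.64 FPKM as Dlk1 ran from 9.06 to 22 FPKM.

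Dlk1, Meg3 and Rian lie in this order on chromosome 12, where Dlk1 is read from the paternal and the noncoding RNAs Meg3 and Rian from the maternal copy. Dlk1 (109418411 to 109429262, plus strand) encodes a transmembrane protein of the Notch ligand family that holds back the differentiation of precursor cells. It stood at 10.4, 10.8 and 9.06 FPKM in WT and at 17.8, 11.8 and 22 FPKM in cKO. The WT libraries were tight and all cKO libraries lay above them, cKO replicate 2 by the least. The difference was the largest of the 10 genes (log2 fold change 0.68, SE 0.209, 95% interval 0.18 to 1.17, unadjusted limma p = 0.0142, adjusted p = 0.743, exact permutation p = 0.1). In all 18 alternatives it was above 0 with an unadjusted p under 0.05, with values from 0.49 without cKO replicate 3 to 0.91 without cKO replicate 2.

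Meg3 (109506879 to 109538163, plus strand), a long noncoding RNA with growth-restraining activity, stood at 7.28, 7.64 and 5.49 FPKM in WT and at 6.57, 7.43 and 5.5 FPKM in cKO. The groups covered nearly the same range, and the interval of the log2 fold change, -0.41 to 0.30 around -0.05, holds changes in either direction. Rian (109570379 to 109628150, plus strand), a noncoding RNA that hosts a series of small nucleolar RNAs, stood at 17.7, 16.7 and 17.6 FPKM in WT and at 20.5, 29.2 and 18.7 FPKM in cKO. The groups did not overlap, with cKO replicate 2 far above the rest and cKO replicate 3 close to WT. The log2 fold change was 0.35 (SE 0.16, unadjusted limma p = 0.0642, adjusted p = 0.773, exact permutation p = 0.1), and it was 0.17 without cKO replicate 2.

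The genes of this cluster had their extremes in different libraries. Dlk1 was highest in cKO replicate 3, where Meg3 was at the low end, and Rian was highest in cKO replicate 2. Pearson r was -0.363 for Dlk1 with Meg3 (exact permutation p = 0.488, adjusted p = 0.71; Spearman rho 0.029, exact permutation p = 1, adjusted p = 1) and 0.269 for Meg3 with Rian (exact permutation p = 0.71, adjusted p = 0.71; rho -0.029, exact permutation p = 1, adjusted p = 1). Without the libraries farthest from the median of the first gene, cKO replicates 1 and 3 for Dlk1 and replicate 3 of both groups for Meg3, r was 0.879 and -0.052. Per length, the ratio of Dlk1 to Meg3 was 1.5 ± 0.133 in WT and 2.77 ± 1.21 in cKO (SD, n = 3 each, exact two-sided permutation p = 0.2).

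The start regions of the neighbours Dlk1 and Meg3 are shown because the genes lie in a single imprinted domain and are read from opposite parental copies, and those of Plagl1 and Peg3 because these encode the zinc finger proteins among the 10 genes. Each window runs from 250 bases before to 50 after an annotated start (RefSeq, GRCm38.p6, 5′ to 3′ along the gene). Of the 10 genes, 8 had a window in that table, 15 windows in all, and H19 and Cdkn1c had none. Capitals mark matches on either strand to TATAAA (the TATA box), TGCCGC (the hexamer bound, when methylated, by the imprint-protecting protein ZFP57) or GGGGCCCC (a palindrome bound by PLAGL1).
Dlk1, chr12:109452573-109452872, plus strand: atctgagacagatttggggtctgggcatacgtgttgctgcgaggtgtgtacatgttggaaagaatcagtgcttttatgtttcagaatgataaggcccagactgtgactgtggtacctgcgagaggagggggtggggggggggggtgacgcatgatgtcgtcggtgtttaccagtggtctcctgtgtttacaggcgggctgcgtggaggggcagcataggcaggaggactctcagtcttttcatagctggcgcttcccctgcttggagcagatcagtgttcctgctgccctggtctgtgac
Meg3, chr12:109540746-109541045, plus strand: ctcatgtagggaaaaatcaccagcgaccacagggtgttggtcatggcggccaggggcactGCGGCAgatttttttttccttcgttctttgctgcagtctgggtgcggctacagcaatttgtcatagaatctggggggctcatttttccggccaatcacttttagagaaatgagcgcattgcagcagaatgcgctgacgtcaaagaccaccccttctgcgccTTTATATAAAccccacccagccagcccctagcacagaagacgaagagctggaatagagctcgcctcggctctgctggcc
Plagl1, chr10:13090582-13090881, plus strand: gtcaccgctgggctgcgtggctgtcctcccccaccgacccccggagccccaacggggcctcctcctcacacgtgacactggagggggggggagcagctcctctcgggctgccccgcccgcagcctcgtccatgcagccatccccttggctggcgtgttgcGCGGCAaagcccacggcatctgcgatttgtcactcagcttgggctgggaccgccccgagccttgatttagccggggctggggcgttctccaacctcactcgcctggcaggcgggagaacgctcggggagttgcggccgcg
Peg3, chr7:6730370-6730669, minus strand: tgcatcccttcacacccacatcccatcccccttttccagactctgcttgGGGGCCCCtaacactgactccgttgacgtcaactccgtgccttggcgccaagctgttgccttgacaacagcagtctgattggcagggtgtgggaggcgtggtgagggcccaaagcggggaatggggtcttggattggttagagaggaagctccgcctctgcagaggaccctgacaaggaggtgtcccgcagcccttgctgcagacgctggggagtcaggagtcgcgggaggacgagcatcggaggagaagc
The Dlk1 window held none of these letters. The first Meg3 window held 1 TGCCGC match and 2 overlapping TATAAA matches, on opposite strands. The Plagl1 window held 1 TGCCGC match and the Peg3 window 1 GGGGCCCC match. Among all 32851 windows of this length, 13.6% held TATAAA, 11.6% TGCCGC and 1.08% GGGGCCCC. CpG dinucleotides numbered 9 in the Dlk1 window, 13 in the first of 2 Meg3 windows, 26 in the Plagl1 window and 13 in the Peg3 window, beside a median of 7 over all windows. CpG counts in the other windows of the 10 genes ran from 0 in that of Rian to 45 in the first of Grb10. Between these lay 1 in the second of Meg3, 2 in the first and 24 in the third of Igf2, and 17 in the second of Mest. TGCCGC matches also lay in windows of Mest, Grb10 and Igf2 that are not printed. A match is a run of letters, not a bound site.

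Plagl1 (chromosome 10, 12966576 to 13007438, plus strand) encodes a zinc finger transcription factor known to bind at other imprinted genes, H19 and Igf2 among them. It had the highest WT mean of the 10 genes, at 59.3, 87.4 and 68 FPKM, and stood at 56.2, 54.1 and 61.2 FPKM in cKO. WT replicate 1 lay inside the cKO range and WT replicate 2 far above it. The log2 fold change, the lowest of the 10, was -0.30 (95% interval -0.65 to 0.05, unadjusted limma p = 0.0792, adjusted p = 0.785, exact permutation p = 0.2) and -0.15 without WT replicate 2. Peg3 (chromosome 7, 6706891 to 6733443, minus strand), which encodes a large zinc finger protein, stood at 56.1, 46.9 and 42.3 FPKM in WT and at 35.1, 50.4 and 64.7 FPKM in cKO. The lowest and the highest library were both cKO, and the mean log2 fold change of 0.01 changed sign with the scaling and with the library left out (interval -0.51 to 0.54).

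Mest (chromosome 6, 30733505 to 30783580, plus strand) encodes a hydrolase-like protein of mesoderm. It stood at 3.21, 3.15 and 4.14 FPKM in WT and at 3.23, 3.75 and 4.45 FPKM in cKO, so that the groups overlapped (log2 fold change 0.10, interval -0.25 to 0.44). Its low level depends on the gene model, since the table gives Mest a length of 31852 bases and the longest GENCODE M21 transcript has 2665. On that transcript's length the same reads come to 41.8 FPKM in WT and 45.6 FPKM in cKO, beside 41.5 FPKM for H19 in WT. For the other 9 genes the same ratio of lengths ran from 0.443, for Rian, to 1.32, for Peg3. The Mest model also overlaps Copg2 on the opposite strand, and with the strandedness of the libraries not given, reads of the overlap cannot be assigned with certainty.

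Cdkn1c (chromosome 7, 143012076 to 143014802, minus strand) encodes p57, an inhibitor of cyclin-dependent kinases that stops cell division. It stood at 25.3, 24.1 and 34 FPKM in WT and at 31.8, 47.7 and 36.9 FPKM in cKO. WT replicate 3 lay inside the cKO range, and cKO replicate 2 was the highest. The log2 fold change was 0.46 (SE 0.183, 95% interval 0.03 to 0.90, unadjusted limma p = 0.0395, adjusted p = 0.771, exact permutation p = 0.2). It lost the unadjusted p under 0.05 in 6 of 18 alternatives, among them leaving out cKO replicate 2 (0.31, unadjusted p = 0.11).

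Grb10 (chromosome 11, 11880499 to 11987428, minus strand) encodes an adaptor that damps signalling from the insulin and IGF1 receptors. It stood at 40.8, 53.6 and 53.9 FPKM in WT and at 40.9, 42.8 and 53.6 FPKM in cKO, a nearly shared range (log2 fold change -0.11, interval -0.46 to 0.25, unadjusted limma p = 0.497, exact permutation p = 0.7). The relative Grb14, an adaptor of the same family, averaged 14.3 ± 1.96 FPKM (WT) and 10 ± 0.746 FPKM (cKO) without overlap (log2 fold change -0.47, SE 0.121, unadjusted limma p = 0.00627, adjusted p = 0.736, exact permutation p = 0.1). Of 7 listed relatives of members, 5 passed the filter, 4 with a log2 fold change above 0 and Grb14 alone below. Grb14 alone reached an unadjusted limma p under 0.05, as did 6.34% of all genes tested. Cdkn1a, a relative of Cdkn1c, had a log2 fold change of 0.59 with overlapping groups (unadjusted limma p = 0.0642, exact permutation p = 0.2).

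Ordered by WT mean, the levels on the gene lengths of the table ran Plagl1, Grb10, Peg3, H19, Cdkn1c, Rian, Igf2, Dlk1, Meg3 and Mest. Plagl1 lay above Grb10 in every WT library, but Grb10, Peg3, H19 and Cdkn1c overlapped each with the next, as did Igf2 with Dlk1. In cKO the order was H19, Plagl1, Peg3, Grb10, Cdkn1c, Rian, Dlk1, Igf2, Meg3 and Mest, and the libraries of the first 5 overlapped from neighbour to neighbour. H19 thus went from rank 4 to rank 1 of the group means, in a stretch of the order where the spreads overlap. The order depends on those lengths. On the longest GENCODE M21 transcripts the WT order was Plagl1, Peg3, Grb10, Mest, H19, Cdkn1c, Igf2, Dlk1, Rian and Meg3, with Mest at 41.8 FPKM beside H19 at 41.5 FPKM, and Rian at 7.67 FPKM below Igf2 at 13.7 FPKM. In cKO, Peg3 then came first at 66.1 FPKM and H19 next at 61.8 FPKM. On the table lengths and by their mean over all 6 libraries, Plagl1 stood above 94.8% of the genes tested, H19 above 92.7%, Igf2 and Dlk1 above 63.9% each and Meg3 above 42.1%.

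Split by parental origin, the fold changes of the classes covered overlapping ranges. Of the 5 paternally expressed genes, 4 had a log2 fold change above 0 and 1 below, with a median of 0.10, a range of -0.30 to 0.68 and 1 unadjusted p under 0.05 (Dlk1). Of the 5 maternally expressed genes, 3 lay above 0 and 2 below, with a median of 0.35, a range of -0.11 to 0.57 and 2 unadjusted p under 0.05 (H19 and Cdkn1c). Each class held 2 genes whose groups did not overlap, all of them higher in cKO. Of all genes tested, 12.3% had groups apart and 6.34% an unadjusted limma p under 0.05. Of the summed FPKM of the 10 genes, the paternally expressed ones gave 51%, 54.5% and 45.6% in WT and 45.2%, 42.3% and 47.4% in cKO. The shares overlapped between the groups (exact two-sided permutation p = 0.2). The share depends on the gene lengths, and on the longest GENCODE M21 transcripts, where Mest weighs more, it was 60.9%, 62.9% and 56.2% in WT and 55.2%, 53.6% and 57.4% in cKO, again with overlap.

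**Figure D3:**
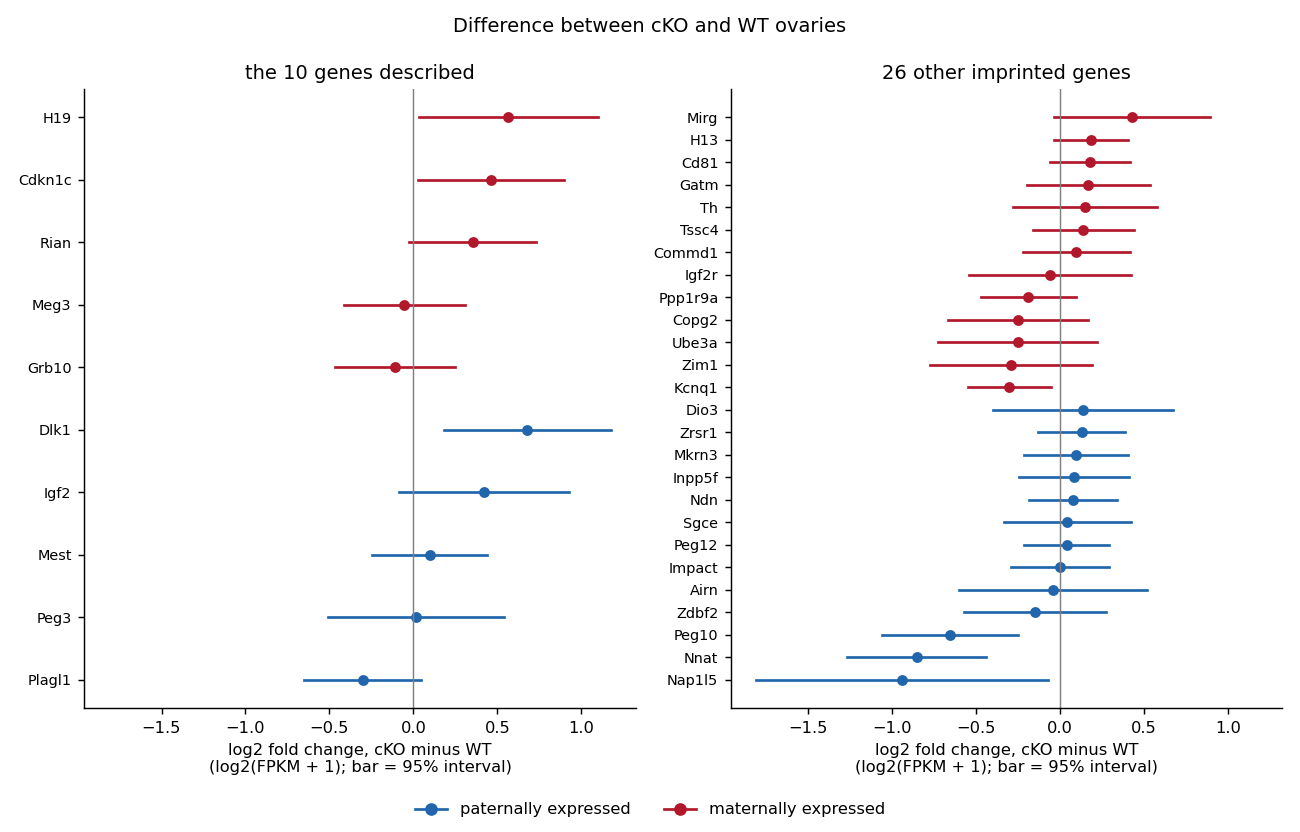
Log2 fold change of cKO against WT with its 95% interval for the 10 genes (left) and for the 26 other imprinted genes that passed the filter (right). Genes listed as paternally expressed are blue and those listed as maternally expressed are red, and the parental copies were not measured apart here. Both classes lie on either side of 0 on the left, and on the right Nnat, Peg10, Nap1l5 and Kcnq1 have intervals that lie wholly below 0.

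The highest and lowest libraries were shared by several of the genes. Of the 10 genes, 5 (H19, Igf2, Dlk1, Peg3 and Mest) were highest in cKO replicate 3, where 17.3% of all genes tested had their highest value, and 2 (Rian and Cdkn1c) were highest in cKO replicate 2, beside 24.3% of all genes tested. The lowest value of 5 genes (H19, Igf2, Rian, Mest and Cdkn1c) was that of WT replicate 2, where 21.1% of all genes tested had theirs. Against their WT means, Dlk1, H19 and Igf2 stood 1.06, 0.95 and 0.94 log2 units higher in cKO replicate 3. In cKO replicate 2, Cdkn1c and Rian stood 0.77 and 0.72 log2 units higher. The highest cKO library was thus not the same for each gene.

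**Figure D4:**
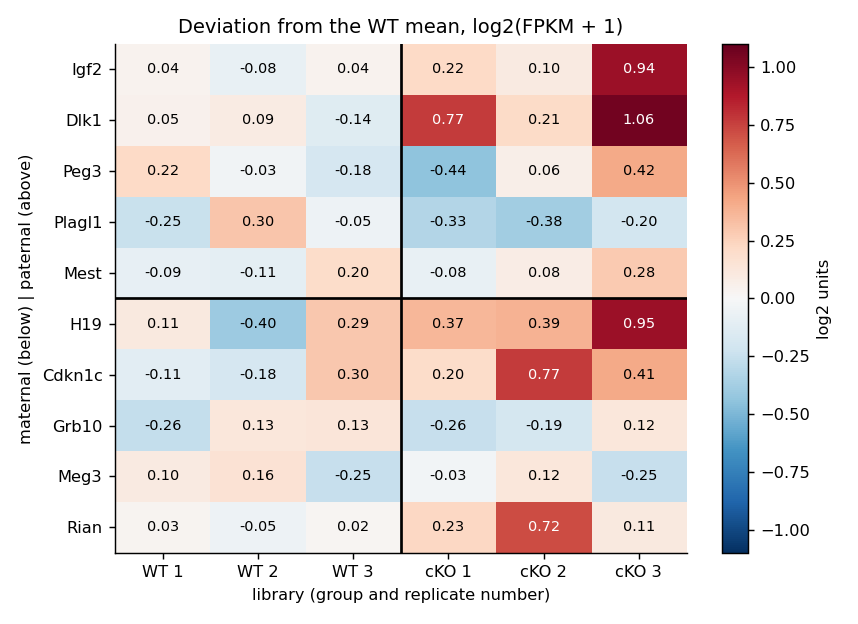
Deviation of each gene from its WT mean in each library, in log2(FPKM + 1) units, paternally expressed genes above the line and maternally expressed ones below. Igf2, Dlk1 and H19 are deepest red in cKO replicate 3 (0.94, 1.06 and 0.95), and Rian and Cdkn1c in cKO replicate 2 (0.72 and 0.77).

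Summed marker levels of several cell types lay apart between the genotypes, although 0 genes of any marker list passed the adjusted limma threshold and no list was tested as a set. The 12 granulosa cell markers summed to 739 to 835 FPKM in WT and 602 to 726 FPKM in cKO, with 7 lower and 1 higher at an unadjusted limma p under 0.05. Of all genes tested, 2.7% were lower and 3.64% higher at that p. The 10 surface epithelium markers summed to 172 to 228 FPKM in WT and 251 to 348 FPKM in cKO, with all 10 log2 fold changes above 0, and the 10 leukocyte markers to 33.1 to 56.6 FPKM and 81.7 to 238 FPKM, again with all 10 above 0. The 8 endothelial markers, all above 0 too, summed to 166 to 172 FPKM and 188 to 196 FPKM, and the 6 oviduct and rete markers to 20.5 to 26.6 FPKM and 30.2 to 47 FPKM, with the 3 that passed the filter all higher at an unadjusted limma p under 0.05. At an unadjusted limma p under 0.05, 6 surface epithelium, 9 leukocyte and 0 endothelial markers were higher, and 0 of these lists were lower. Of all 14714 genes tested, 7352 had a log2 fold change above 0. The oviduct and rete sum was highest in cKO replicate 2, as were Rian and Cdkn1c. The surface epithelium, endothelial, theca and stroma, and pericyte and smooth muscle sums were highest there too. That library held the highest value of 24.3% of all genes tested. The 12 oocyte markers (2355 to 2444 and 2085 to 2478 FPKM) and the 8 pericyte and smooth muscle markers (146 to 210 and 111 to 221 FPKM) overlapped. The 6 erythroid markers reached 572 FPKM in cKO replicate 3, beside 157 to 333 FPKM in the other libraries. The 12 theca and stroma markers overlapped, at 2121 to 3049 FPKM in WT and 2416 to 3131 FPKM in cKO, with Cyp17a1, the defining enzyme of theca cells, under 1 FPKM in each library. The part of these cell types in the values of Igf2, Dlk1, H19, Rian and Cdkn1c was not tested. Of the skeletal muscle list 7 of 8 genes, of the adipocyte list 5 of 6 and of the adrenal cortex list 5 of 5 stayed below 1 FPKM in every library.

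**Figure D5:**
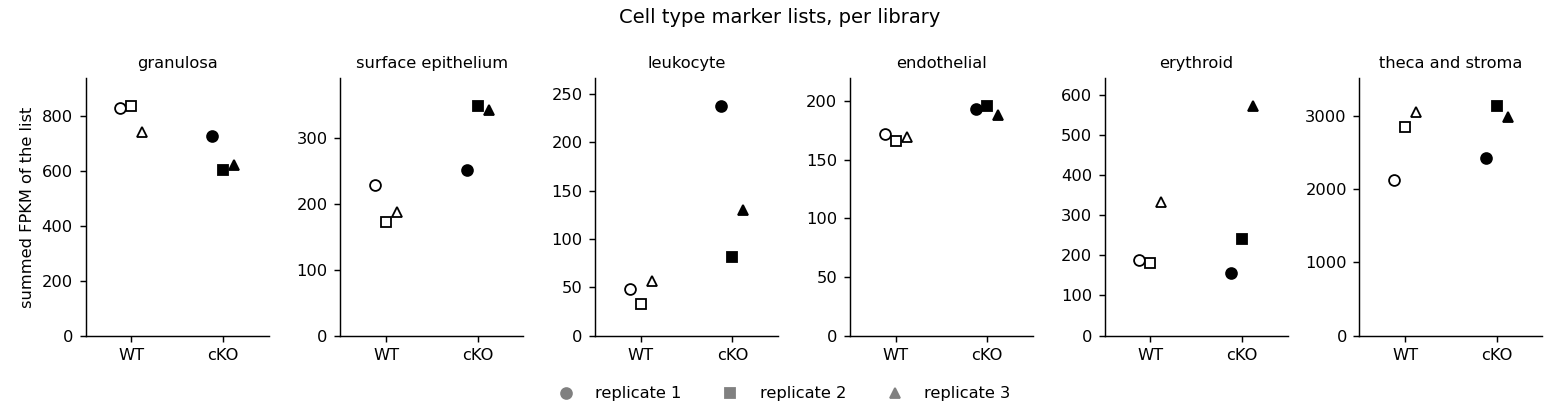
Summed FPKM of 6 cell type marker lists in each library (open WT, filled cKO, symbol shape by replicate number). Granulosa cell sums lie lower in every cKO library and surface epithelium, leukocyte and endothelial sums higher, and the erythroid sum of cKO replicate 3 stands apart at 572 FPKM.

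Other genes of the same clusters were looked at from a list. Near Dlk1, Meg3 and Rian, the maternally expressed noncoding RNA Mirg stood at 1.38, 0.889 and 1.37 FPKM in WT and at 1.59, 2.76 and 1.68 FPKM in cKO. Like Rian, it was highest in cKO replicate 2 and did not overlap between the groups (log2 fold change 0.43, unadjusted limma p = 0.0664, adjusted p = 0.773, exact permutation p = 0.1). Mirg rested on few reads, 31, 21 and 33 in WT and 39, 69 and 40 in cKO, so the gap between its groups was a few reads wide. Dio3, which encodes a thyroid hormone-inactivating enzyme, overlapped, with 5.12 ± 0.845 FPKM (WT) and 5.89 ± 1.98 FPKM (cKO). In the domain of Cdkn1c, the potassium channel gene Kcnq1 stood at 13.3, 12.4 and 12.2 FPKM in WT and at 11.5, 9.24 and 9.54 FPKM in cKO, every cKO library below every WT library (log2 fold change -0.30, SE 0.105, unadjusted limma p = 0.0237, adjusted p = 0.761, exact permutation p = 0.1). In the same domain Cd81, a tetraspanin gene, averaged 107.6 ± 4.05 FPKM (WT) and 122 ± 11.9 FPKM (cKO), every cKO library above every WT library (log2 fold change 0.18, unadjusted limma p = 0.121, adjusted p = 0.806, exact permutation p = 0.1). Tssc4 there had a log2 fold change of 0.14 with overlapping groups. Zim1, next to Peg3, and Copg2, which overlaps Mest, had log2 fold changes of -0.30 and -0.25 with overlapping groups.

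Over the wider list of 44 other imprinted genes, 26 passed the filter, 15 with a log2 fold change above 0 and 11 below (median 0.04). The parental class of these genes is as listed and was not measured in these ovaries. An unadjusted limma p under 0.05 was reached by 0 that were higher and 4 that were lower, and the adjusted threshold by 0. The groups lay apart in 3 that were higher and 3 that were lower. Among all genes tested, 3.64% were higher and 2.7% lower at an unadjusted limma p under 0.05. Groups apart made up 6.37% higher and 5.89% lower of all genes tested. Nnat, which encodes neuronatin, a small membrane protein, stood at 66.7, 74.3 and 72.6 FPKM in WT and at 42.8, 47 and 29.1 FPKM in cKO, well apart (log2 fold change -0.86, SE 0.175, unadjusted limma p = 0.00179, adjusted p = 0.613, exact permutation p = 0.1). Peg10, a retrotransposon-derived gene, stood at 40.8, 59.6 and 64.1 FPKM in WT and at 33, 32 and 36.5 FPKM in cKO, with WT replicate 1 near cKO (log2 fold change -0.66, SE 0.171, unadjusted limma p = 0.00637, adjusted p = 0.736, exact permutation p = 0.1). The histone chaperone relative Nap1l5 stood at 8.55, 12.6 and 5.14 FPKM in WT and at 6.59, 2.5 and 3.22 FPKM in cKO, with overlap. These genes, listed as paternally expressed and named here for their unadjusted p, thus had lower means in cKO, unlike Igf2 and Dlk1. The rest of the class was mixed. Of the 13 tested genes of the wider list that are listed as paternally expressed, 8 lay above 0 and 5 below (median 0.04). Plagl1, among the 10 members, also had a lower mean in cKO. Whether the fold changes of these genes differ from each other was not tested.

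Of 11 further genes near the clusters, outside the lists of imprinted genes used here, 10 were in the table under the listed symbol and passed the filter. A log2 fold change above 0 was found in 6 and below 0 in 4 (median 0.02), and 0 passed the adjusted threshold. Whether any of them is imprinted was not examined. Lsp1, a leukocyte actin-binding gene near H19, averaged 46.4 ± 4.02 FPKM (WT) and 59.4 ± 12 FPKM (cKO) (log2 fold change 0.34, unadjusted limma p = 0.0611, exact permutation p = 0.1). Begain, near Dlk1, stood at 3.65 ± 0.236 and 4.73 ± 0.715 FPKM (0.30, unadjusted p = 0.0498 by limma). Phactr2, near Plagl1, stood at 16.7 ± 1.64 and 12.3 ± 2.77 FPKM (-0.42, unadjusted p = 0.0399 by limma).

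The IGF system in which Igf2 and Grb10 act was represented by 22 genes, of which 17 passed the filter, 11 with a log2 fold change above 0 and 6 below (median 0.10). An unadjusted limma p under 0.05 was reached by 2, both higher in cKO, and the adjusted threshold by 0. Over all genes tested, 3.64% were higher and 2.7% lower at that unadjusted p. Igfbp3, which encodes a binding protein that carries IGFs, stood at 30.2, 28.3 and 31.9 FPKM in WT and at 39.5, 42.6 and 47.5 FPKM in cKO, with clear space between the groups (log2 fold change 0.50, SE 0.099, unadjusted limma p = 0.00142, adjusted p = 0.613, exact permutation p = 0.1). Igfbp2, another binding protein gene, stood at 45.3, 30.2 and 44.9 FPKM in WT and at 47.2, 57.5 and 59.3 FPKM in cKO, apart by a narrow gap (log2 fold change 0.45, unadjusted limma p = 0.0375, adjusted p = 0.771, exact permutation p = 0.1). The receptor genes differed by less than their spread. Igf2r, itself imprinted and the receptor that clears IGF2, averaged 23 ± 4.45 FPKM (WT) and 22.1 ± 5.08 FPKM (cKO), with an interval of the log2 fold change from -0.54 to 0.42. Per length, Igf2 came to 0.508 ± 0.124 of Igf2r in WT and 0.721 ± 0.15 in cKO (SD, n = 3 each, exact two-sided permutation p = 0.2). Igf1, with 37.5 ± 6.6 FPKM (WT) and 43.2 ± 8.07 FPKM (cKO), was about as variable, and its interval ran from -0.23 to 0.62.

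Among 13 genes that set or keep imprints, 12 passed the filter, 2 with a log2 fold change above 0 and 10 below (median -0.07), and 0 reached an unadjusted limma p under 0.05 or the adjusted threshold. That unadjusted p was reached by 6.34% of all genes tested. Uhrf1, which guides the maintenance DNA methyltransferase to replicating DNA, averaged 111 ± 2.79 FPKM (WT) and 97.6 ± 4.48 FPKM (cKO) without overlap (log2 fold change -0.18, unadjusted limma p = 0.0641, exact permutation p = 0.1). The oocyte factor gene Dppa3 stood at 193 ± 23.7 and 237 ± 33.4 FPKM (0.29, unadjusted p = 0.0816 by limma). The methyltransferase genes Dnmt1 and Dnmt3a had log2 fold changes of -0.20 and -0.17 with overlapping groups.

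The mean profile of the 10 genes (the mean of their log2(FPKM + 1) values, each less its own mean over the libraries) stood at -0.12, -0.12 and -0.07 in WT replicates 1, 2 and 3 and at -0.04, 0.08 and 0.28 in cKO replicates 1, 2 and 3. Among 12414 protein-coding genes tested, the 5 most like it over the 6 libraries were the metallothionein gene Mt2 (Pearson r 0.983), Htatsf1 (0.974), the alpha globin gene Hba-a2 (0.974), Kcnab3 (0.973) and Dnajc10 (0.972). They were picked as the highest of many correlations over 6 points that share their libraries, so the r values are a description. Mt2 stood at 44.4, 40.1 and 45.7 FPKM in WT and at 53.6, 62.7 and 85.4 FPKM in cKO, highest in cKO replicate 3 as were H19, Igf2 and Dlk1. Hba-a2 has a near-identical copy, Hba-a1, so that its value is uncertain.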

How the data were processed

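The deposited table gives FPKM per gene for 6 libraries, scaled by the authors. HISAT2 2.0.5 and the builds mm10 and GRCm39 are named, per the submitters' processing notes. The table's chromosome accessions are those of GRCm39. Counter, annotation release and strandedness: not given in the sources used here. The table's gene length column was deposited by the authors with the other annotation of each gene. Multiplied by length, 100% of FPKM values came out as whole reads of a library-wide step (tolerance 0.01 reads), giving 16.8 to 18.7 M reads per library. The denominators implied by the FPKM followed a size factor per library, not these totals. The denominator was 19213777 for cKO replicate 2, with 18599173 reads, and 18349640 for cKO replicate 3, with 18721895 reads. No further scaling was applied.

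Groups and replicate numbers came from the sample labels. log2(FPKM + 1) values were compared for the 14714 genes whose mean reached 1 FPKM, cKO against WT, with limma 3.58.1 in R 4.3.3 (trended prior, two-sided, Benjamini-Hochberg over all genes tested, threshold 0.05). Fold changes on this scale understate the change of low genes. Single genes and ratios also had an exact permutation test over libraries. The limma script was first tested on simulated data. The members and lists were chosen with earlier results of these data known, so no list was tested as a set. Named are Srsf1, the 10 members, other imprinted genes with an unadjusted p under 0.05, genes of the members' clusters, up to 4 genes of other lists by smallest p, and the 5 genes most like the mean profile. Igf1 and Igf2r, chosen after their values were seen, and marker genes named as absent lie outside this rule. Alternatives were other pseudocounts, filters, scalings and priors, library weights, a replicate block, limma-voom on recovered reads and leaving out each library.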

Additional observations from a re-analysis of the deposited data

How the results depend on the processing

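Under the 18 alternatives, 0 members passed the adjusted threshold, and the direction of H19, Igf2, Dlk1, Rian, Plagl1, Grb10, Mest (17 alternatives, as it fell below the filter at 5 FPKM) and Cdkn1c held in each. Members with an unadjusted p under 0.05 numbered 3, or 2 with library weights, the replicate block, quantile normalization and no filter, and 1 (without WT replicate 2) to 3 with a library left out. The median log2 fold change was 0.10 for paternally expressed members (0.00 to 0.24 with a library left out) and 0.35 for maternally expressed ones (0.17, without cKO replicate 2, to 0.41). Over all genes, the count higher in cKO was 0 with a pseudocount of 0.1 or 0.5, quantile normalization, no filter or one at 5 FPKM, the replicate block and limma-voom, 3 with library weights and 0 to 1 with a library left out. The count lower was 0 with no filter, the replicate block and limma-voom, 2 with quantile normalization and 0 to 1 with a library left out. The cause was not tested. At an unadjusted p under 0.05 limma-voom, chosen after seeing the data, found 907 genes and the replicate block 884, against 933.

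The Peg3 log2 fold change reversed with rescaling to a common total (-0.0496), quantile normalization (-0.0349) and library weights (-0.26), and ran from -0.19 to 0.24 with a library left out. With a library left out the Meg3 log2 fold change ran from -0.18 to 0.0446, the Igf2r log2 fold change from -0.21 to 0.13 (library weights 0.0252) and the Dio3 log2 fold change from -0.0563 to 0.37 (library weights 0.4). The Pearson r of H19 and Igf2, again over both genotypes pooled, passed the adjusted threshold with rescaling (0.837, exact permutation adjusted p = 0.0458) and quantile normalization (0.892, exact permutation adjusted p = 0.00417).

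Deviations from the group mean correlated between WT and cKO libraries of equal number at 0.18, -0.08 and -0.06, so the numbers gave no sign of pairing. The replicate block left 0 genes past the adjusted threshold. TMM scaling, edgeR and DESeq2 on recovered reads were not run.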
